A study of Homo sapiens with 6 samples.

Results

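Syndecans and glypicans are the heparan sulfate proteoglycans of the cell surface. The 4 syndecans (SDC1 to SDC4) span the membrane and reach into the cytoplasm, whereas the 6 glypicans (GPC1 to GPC6) are held on the outer face by a glycosylphosphatidylinositol (GPI) anchor. Their heparan sulfate chains bind fibroblast growth factor 2 (FGF2) and hold it together with its receptor tyrosine kinase, so these core proteins are known as coreceptors of FGF2. In the liver, stellate cells store retinoids, turn into matrix-producing myofibroblasts on injury and respond to FGF2. The genes were chosen by symbol, and the 10 of them were among 60748 genes in the deposited table.

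RNA was sequenced in 6 libraries of LX-2 cells, an established line of human hepatic stellate cells, with n = 3 in each group. LX-2Vector cells carried the corresponding lentiviral vector, GV367, and LX-2FAP cells had been infected with lentivirus that carries a plasmid for overexpression of fibroblast activation protein α (FAP). The vector places its insert behind the Ubi promoter and also encodes EGFP and puromycin resistance. Cells of all 6 libraries were cultured for 24 h. The study selected stable clones with puromycin and does not say how many clones the LX-2FAP cells stand for. Nothing in the labels says that the 3 libraries of a group came from separate cultures, so that p-values measure the spread between these libraries only, which may be technical.

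Total counts ran from 17355700 to 26352060 per library. FAP had 42 to 55 counts in the LX-2Vector libraries and 14805 to 15160 in the LX-2FAP libraries, a log2 fold change of 8.33 (standard error 0.13, edgeR adjusted p = 4.47e-16). Of 13 stellate cell markers listed, RGS5 was left out because its symbol was not on exactly 1 row of the deposited table. Of the other 12, 9 had at least 10 counts in every library. LRAT was at 0, and DES, named after its values were seen, had no more than 1 count. The summed level of the 12 was 1893 to 2006 CPM (counts-per-million after TMM normalization) in LX-2Vector and 1939 to 2067 CPM in LX-2FAP. Vimentin (VIM) made up 78.9% to 86.6% of it. Without VIM the sum was 358.4 to 422.2 CPM in LX-2Vector and 259.6 to 339.4 CPM in LX-2FAP, with no overlap. Most of this sum was COL1A1, at 275.2 to 328.5 CPM in LX-2Vector and 199.0 to 264.9 CPM in LX-2FAP. Of the 10 stellate cell markers tested, 3 were called lower and 1 higher. With these genes named after their values were seen, the log2 fold changes were -0.69 for COL3A1 (edgeR adjusted p = 0.00765), -0.40 for COL1A1 (0.0135), -0.38 for PDGFRB (0.0269) and 0.13 for VIM (0.0372), and with the GC trend removed COL1A1 (-0.26) and PDGFRB (-0.26) were not called. Of 5 hepatocyte markers TTR and AHSG were at 0 and 1 had at least 10 counts in every library, with sums of 12.7 to 14.7 CPM in LX-2Vector and 10.4 to 11.6 CPM in LX-2FAP. Sums over 5 endothelial markers, 3 of them with at least 10 counts in every library, were 9.92 to 11.3 CPM and 7.34 to 9.21 CPM. The leukocyte (8.18 to 10.0 and 7.97 to 9.79 CPM) and epithelial sums (0.799 to 2.39 and 0.834 to 1.00 CPM), over 5 markers each, overlapped between groups. The part of these markers in the results below was not tested. Across the transcriptome, 18275 genes were tested, and 967 (5.29%) were called at an adjusted p under 0.05, of which 498 (2.73% of those tested) were lower in LX-2FAP. Leaving out a single library moved the number called to between 26 (LX-2FAP replicate 3) and 1949 (LX-2FAP replicate 1).

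LX-2 cells expressed a syndecan-rich set of these genes, led by SDC4. Transcripts were counted for 8 of the 10 genes, and the levels spanned more than 2 orders of magnitude from SDC4 to GPC5. GPC3 and GPC4 had no count in any library. Between LX-2FAP and LX-2Vector the differences were small: SDC3 and GPC1 were called lower, at 0.853 and 0.869 times the control level, and the other 6 tested genes were not called. Both calls were lost once the trend of fold change with GC content was removed, and SDC1 was then called higher.

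The order of levels was read in FPKM (fragments per kilobase of transcript scaled to sequencing depth, computed by the authors), which is the only scale here on which genes can be compared with each other. In LX-2Vector, mean FPKM was 71.4 for SDC4, 29.6 for SDC1, 15.4 for GPC1, 12.8 for SDC3, 5.30 for GPC6, 4.36 for SDC2, 0.827 for GPC2 and 0.228 for GPC5. No neighbours in this order overlapped between the 3 LX-2Vector libraries, GPC3 and GPC4 at 0 aside. SDC4 stood at the 97.9th percentile of tested genes by FPKM and SDC1 at the 92.4th. GPC1 and SDC3 lay at the 82.5th and 78.8th percentiles, GPC6 and SDC2 at percentiles 59.5 and 55.2, and GPC2 and GPC5 at percentiles 24.1 and 6.63. In LX-2FAP the order was the same except that SDC2 (4.46 FPKM) and GPC6 (4.31 FPKM) changed places, and their libraries overlapped there. This exchange rests on the gene lengths in the deposited table (4084 bases for SDC2 and 7122 for GPC6). With the merged exon lengths of GENCODE release 29 (4536 and 6468 bases), an alternative chosen after seeing the data, GPC6 stayed above SDC2 in LX-2FAP, with a mean of 4.74 FPKM (4.10 to 5.25 over 3 libraries) against 4.02 FPKM (3.94 to 4.12), and the libraries overlapped there too. These differences between groups are averages over all cells of a culture, so fewer cells with a transcript and less transcript per cell cannot be told apart.

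**Figure D1:**
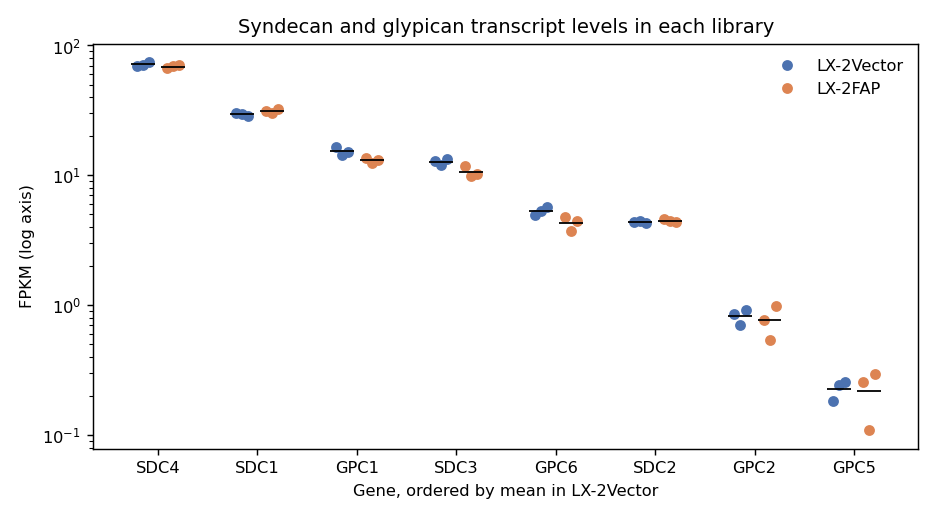
Each point is the FPKM of 1 library on a log axis, with LX-2Vector libraries in blue, LX-2FAP libraries in orange and the mean of 3 libraries as a black line. SDC4 lies highest at 66.7 to 74.1 FPKM, GPC5 lies lowest at 0.109 to 0.294 FPKM, and the orange points of GPC1, SDC3 and GPC6 lie below the blue ones.

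The upstream sequences of 3 genes are shown because 2 of them, SDC3 and GPC1, carried the calls, and the third, SDC4, was the most abundant transcript and was not called. Each is the stretch of 250 bases before the RefSeq start site (GRCh38.p14), 5′ to 3′ on the strand of the gene, with capitals on the GC box, GGGCGG or its complement CCGCCC, which is known as a binding sequence of the Sp1 family. The windows lie at chr1:30908759-30909008 (minus strand) for SDC3, chr2:240435413-240435662 (plus strand) for GPC1 and chr20:45348425-45348674 (minus strand) for SDC4.
SDC3: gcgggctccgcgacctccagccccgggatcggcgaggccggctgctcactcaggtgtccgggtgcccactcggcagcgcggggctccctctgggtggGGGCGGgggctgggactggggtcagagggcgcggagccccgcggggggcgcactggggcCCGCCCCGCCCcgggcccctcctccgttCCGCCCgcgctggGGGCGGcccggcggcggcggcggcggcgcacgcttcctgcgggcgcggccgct
GPC1: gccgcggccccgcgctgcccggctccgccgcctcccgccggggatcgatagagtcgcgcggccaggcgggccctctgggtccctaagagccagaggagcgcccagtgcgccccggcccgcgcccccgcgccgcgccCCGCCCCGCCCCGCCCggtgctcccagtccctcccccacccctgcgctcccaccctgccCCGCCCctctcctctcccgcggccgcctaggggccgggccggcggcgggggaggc
SDC4: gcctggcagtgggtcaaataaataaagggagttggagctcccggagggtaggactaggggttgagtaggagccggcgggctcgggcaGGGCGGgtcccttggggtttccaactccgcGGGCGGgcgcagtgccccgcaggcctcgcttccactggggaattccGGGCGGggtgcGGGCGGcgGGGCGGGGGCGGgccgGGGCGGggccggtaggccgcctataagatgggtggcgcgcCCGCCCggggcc

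All 3 windows were rich in CpG, with 37 CpG in SDC3, 36 in GPC1 and 26 in SDC4, where the median over the 35116 windows in the RefSeq table was 11. GC content was 83.6%, 84.0% and 73.6%, against a median of 58.0%. The GC box, searched on both strands, occurred 5 times in SDC3, 4 times in GPC1 and 8 times in SDC4, and 42.6% of all windows hold at least 1. The letters GCGTGGGCG or GCGGGGGCG, a binding sequence of EGR1, occurred once in GPC1, apart from the GC boxes, and once in SDC4, where they overlap GC boxes, and 5.37% of all windows hold either form. The window of GPC6 looked different from these 3, with a GC content of 37.6%, 6 CpG and no GC box. It held 1 match to TATAAA, as did the window of GPC5, and 10.7% of all windows hold these letters. Entries were found for 8 of the 10 genes. GC boxes were thus found in the windows of called and of uncalled genes.

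SDC4, the syndecan found at focal adhesions, where it acts with integrins, had 69.4, 70.8 and 74.1 FPKM in LX-2Vector replicates 1 to 3. It had 66.7, 69.1 and 70.1 FPKM in LX-2FAP. The groups overlapped, and the log2 fold change was -0.03 with a 95% interval from -0.12 to 0.06 (edgeR adjusted p = 0.738). An interval of this width leaves room for a change of less than 10% in either direction. SDC4 (ENSG00000124145) lies on chromosome 20 from 45325288 to 45348424 and has a single annotated transcript.

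SDC1, a syndecan known from epithelia and plasma cells, was the second most abundant member. It had 30.2, 29.8 and 28.8 FPKM in LX-2Vector and 31.2, 30.1 and 32.2 FPKM in LX-2FAP. The mean was 29.6 ± 0.725 FPKM in LX-2Vector and 31.2 ± 1.04 FPKM in LX-2FAP (SD, n = 3). In CPM, the LX-2FAP libraries lay at 110.4 to 118.0 and the LX-2Vector libraries at 103.1 to 108.9, with no overlap, whereas in FPKM the lowest LX-2FAP library lay just under the highest LX-2Vector library. The log2 fold change was 0.10 (standard error 0.04, edgeR adjusted p = 0.177). SDC1 (ENSG00000115884) lies on chromosome 2 from 20200797 to 20225433.

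SDC3, best known from the nervous system, had 12.9, 12.1 and 13.3 FPKM in LX-2Vector and 11.9, 9.90 and 10.2 FPKM in LX-2FAP. LX-2FAP replicate 1 lay close to the controls, and the other two LX-2FAP libraries lay further below. The mean fell from 12.8 ± 0.635 to 10.7 ± 1.05 FPKM (SD, n = 3), a log2 fold change of -0.23 (standard error 0.06, edgeR adjusted p = 0.0438). In CPM the groups overlapped, at 84.4 for LX-2Vector replicate 2 and 84.6 for LX-2FAP replicate 1. Without LX-2FAP replicate 1 the log2 fold change was -0.31 (edgeR adjusted p = 0.00269), and the call was lost on leaving out any of the other 5 libraries, with log2 fold changes from -0.26 to -0.18. SDC3 (ENSG00000162512) lies on chromosome 1 from 30869467 to 30908761.

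SDC2, a syndecan of mesenchymal cells, had 4.39, 4.43 and 4.28 FPKM in LX-2Vector and 4.57, 4.44 and 4.37 FPKM in LX-2FAP. These libraries were close together, with a coefficient of variation in LX-2Vector of 1.89% in CPM, against a median of 6.92% over all tested genes. The log2 fold change was 0.06 with a 95% interval from -0.09 to 0.21 (edgeR adjusted p = 0.66). SDC2 (ENSG00000169439) lies on chromosome 8 from 96493351 to 96611780.

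GPC1, the most abundant glypican here and one known to bind FGF2 through its chains, had 16.5, 14.4 and 15.2 FPKM in LX-2Vector. It had 13.7, 12.4 and 13.2 FPKM in LX-2FAP, each below every control library. The mean fell from 15.4 ± 1.03 to 13.1 ± 0.652 FPKM (SD, n = 3), a log2 fold change of -0.20 (standard error 0.06, edgeR adjusted p = 0.0445). LX-2Vector replicate 1 was the highest library, and without it the log2 fold change was -0.14 (edgeR adjusted p = 0.141). The call was also lost without replicate 3 of LX-2Vector (-0.21) and without replicate 2 (-0.17) or 3 (-0.21) of LX-2FAP, and held without LX-2Vector replicate 2 (-0.24) or LX-2FAP replicate 1 (-0.23). GPC1 (ENSG00000063660) lies on chromosome 2 from 240435671 to 240468078.

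GPC6, a glypican of growing skeletal and other mesenchymal tissue, had 4.92, 5.29 and 5.67 FPKM in LX-2Vector and 4.77, 3.73 and 4.42 FPKM in LX-2FAP. The groups did not overlap, with means of 5.30 ± 0.374 and 4.31 ± 0.531 FPKM (SD, n = 3). The log2 fold change of GPC6, -0.26 (standard error 0.08), was the most negative of the tested members, and it missed the threshold (edgeR adjusted p = 0.0668). It passed without LX-2FAP replicate 1 (log2 fold change -0.34, edgeR adjusted p = 0.0149) and with scaling by library size alone (-0.29, edgeR adjusted p = 0.0457). GPC6 (ENSG00000183098) spans 1180.6 kb of chromosome 13, from 93226842 to 94407401, and begins 353.2 kb beyond the end of GPC5. An antisense gene shares 7.4% of its exon bases, and whether counting used strand was not stated. That antisense gene had 0 or 1 count in each library.

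GPC2, which is known from developing neurons, had 47 to 87 counts in LX-2Vector and 38 to 81 counts in LX-2FAP. Its mean was 0.827 ± 0.109 FPKM in LX-2Vector and 0.767 ± 0.226 FPKM in LX-2FAP (SD, n = 3), with overlap. At this depth the 95% interval of its log2 fold change was wide, from -0.48 to 0.33 (estimate -0.08, edgeR adjusted p = 0.861). GPC5 (ENSG00000179399), its gene 1475.1 kb long on chromosome 13, had 7 to 22 counts in a library. The mean was 0.228 ± 0.0393 FPKM in LX-2Vector and 0.220 ± 0.0980 FPKM in LX-2FAP, and the 95% interval of the log2 fold change ran from -0.63 to 0.72 (edgeR adjusted p = 0.959). A difference of that size was not detectable for GPC5 at this depth.

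GPC3, an X-linked glypican known as an oncofetal antigen of hepatocellular carcinoma, and its neighbour GPC4 had 0 counts in all 6 libraries. They lie 120.3 kb apart on chromosome X, and both were too low to test. A count of 0 allows up to 3 counts, which corresponds to 0.114 to 0.173 CPM in a single library and to 0.0234 CPM over the 128437953 counts of the 6 libraries together. These limits cover counting error only. Genes around them on the X chromosome were counted, with 1455 to 2167 counts for PHF6, 941 to 1495 for HPRT1 and 414 to 563 for STK26, all picked after their values were seen. HS6ST2, a heparan sulfate sulfotransferase gene 338.7 kb from GPC4 and likewise picked, had no more than 2 counts in any library.

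Of the 8 tested members, 2 were called and both were lower in LX-2FAP, where 5.29% of all tested genes were called and 2.73% were called lower. The groups did not overlap in CPM for 4 of the 8 (SDC1, SDC2, GPC1 and GPC6), against 26.4% of all tested genes. An unadjusted p under 0.05 was found for 4 of the 8 and for 22.2% of all tested genes. The median log2 fold change was 0.02 over the 4 syndecans and -0.14 over the 4 tested glypicans, where the median of all tested genes was -0.01. The study's cutoff of a fold change over 1.2 with an unadjusted p was met by 0 of the 10 in the TMM fit, where GPC6 came nearest with a level 1.198-fold lower in LX-2FAP. GPC6 lay at the edge of that cutoff, since its difference was 1.22-fold with scaling by library size alone and its mean FPKM differed by 1.23-fold.

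GC content moved with these differences. The tested genes were divided into 5 bins of equal size by the GC content of their transcripts, and the median log2 fold change went from 0.07 in the bin of lowest GC through 0.03, -0.01 and -0.05 to -0.12 in the bin of highest GC. The highest bin (57.0% to 74.4% GC) held SDC1, SDC3, GPC1 and GPC2, and GPC1 with 66.7% GC was at the 98.8th percentile of tested genes. SDC2 and GPC6 were in the second bin, and SDC4 and GPC5 in the third. With a smooth GC trend removed from each library, the log2 fold change was -0.02 for GPC1 (edgeR adjusted p = 0.866) and -0.11 for SDC3 (edgeR adjusted p = 0.258). In the same fit SDC1 was called higher, at 0.24 (edgeR adjusted p = 0.0106), 4.40% of all tested genes were called, and the medians of the 5 bins lay at 0.02 to 0.03. GPC6, a gene of 41.6% GC, was at -0.28 there (edgeR adjusted p = 0.0511), close to its value without the correction. Whether the trend is technical was not tested.

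**Figure D2:**
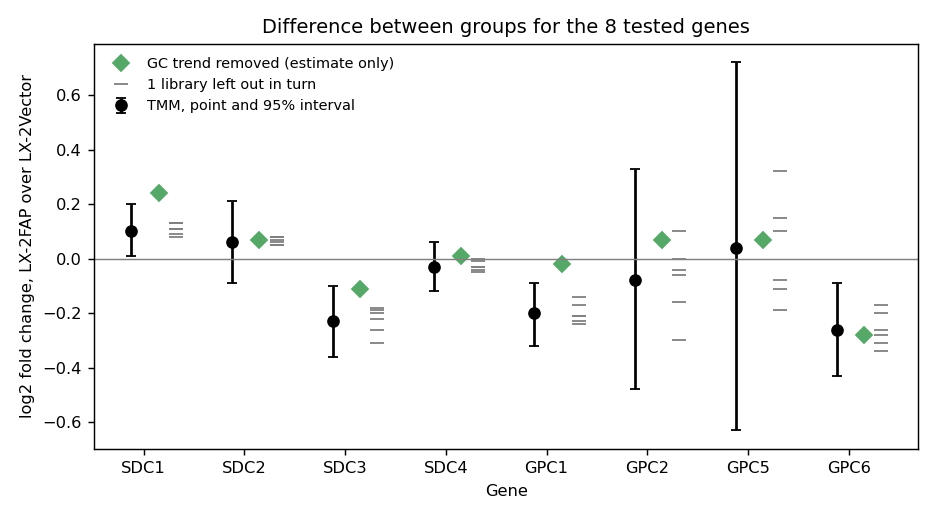
For each of the 8 tested genes, the black point is the log2 fold change of LX-2FAP over LX-2Vector after TMM normalization with its 95% interval, the green diamond is the estimate with the GC trend removed, and the grey marks are the 6 estimates that each leave out 1 library. GPC1 moves from -0.20 to -0.02 and SDC1 from 0.10 to 0.24 with the GC trend removed, whereas GPC6 stays near -0.26.

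The make-up of the set was compared in summed FPKM. The syndecans summed to 117, 117 and 121 FPKM in LX-2Vector and to 114, 114 and 117 FPKM in LX-2FAP. These sums overlapped (118 ± 2.03 and 115 ± 1.78 FPKM, SD, n = 3, exact permutation p = 0.2, 2-sided), and their difference of -3.23 FPKM was -0.916 on TMM-normalized CPM per kilobase. The glypicans summed to 22.4, 20.7 and 22.0 FPKM in LX-2Vector and to 19.5, 16.8 and 18.9 FPKM in LX-2FAP, with no overlap. The glypican share of the total was 15.5 ± 0.554% in LX-2Vector and 13.8 ± 0.852% in LX-2FAP (SD, n = 3, exact permutation p = 0.1, 2-sided), and 0.1 is the smallest p that 3 libraries against 3 can give. SDC4 made up 51.1% of the total in LX-2Vector and 51.5% in LX-2FAP. SDC1 went from 21.2% to 23.4%, SDC2 from 3.12% to 3.35% and GPC1 from 11.0% to 9.82%, each without overlap (exact permutation p = 0.1, 2-sided). A share also moves when other members of the total change. These sums and shares were not corrected for the GC trend. With that trend removed, the log2 fold change was -0.02 for GPC1 and 0.24 for SDC1.

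**Figure D3:**
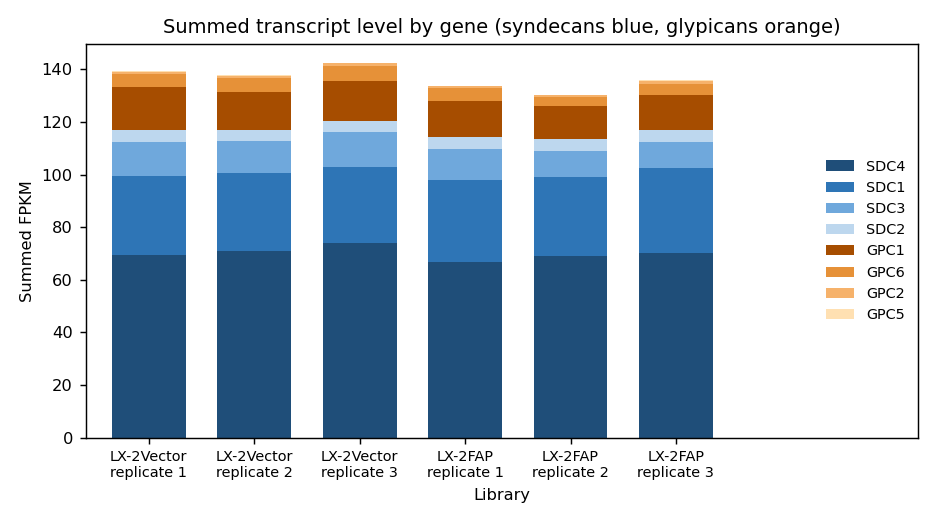
Stacked bars give the FPKM of each gene in each library, syndecans in blue and glypicans in orange, on an axis that starts at 0. SDC4 fills about the lower 51% of each bar, and the orange part is thinner in the 3 LX-2FAP libraries (16.8 to 19.5 FPKM) than in the 3 LX-2Vector libraries (20.7 to 22.4 FPKM).

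The enzymes and partners that act on these core proteins were then examined in 8 lists of 68 genes, of which 54 were tested. The lists were written with earlier results of these data known. In all, 3 genes were called higher and 3 lower, and 5 of the 6 came from the list headed other heparan sulfate proteoglycans. The 6 calls were 11.1% of the 54, where 5.29% of all tested genes were called. The median log2 fold change over the 54 genes was -0.04.

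The genes that build and edit the chains had 0 calls among 23 tested, a number too small to set apart from the 5.29% called over all tested genes. Of the 7 genes that start the chain on its linker, 0 were called, and FAM20B, the xylose kinase of the linker and the most abundant of them, had 24.0 ± 0.517 FPKM in LX-2Vector and 24.1 ± 0.372 FPKM in LX-2FAP. Of 5 genes of chain polymerization, 0 were called, with the polymerase subunit EXT1 at 12.6 ± 0.757 and 11.8 ± 0.391 FPKM (log2 fold change -0.06, edgeR adjusted p = 0.495). Of 16 genes of sulfation and epimerization, 8 were tested and 0 called, and GLCE, the epimerase that makes iduronic acid, had 17.7 FPKM in both groups. Of 4 genes that edit or cleave the chains, 3 were tested and 0 called, and heparanase (HPSE) had 3.89 ± 0.218 and 3.91 ± 0.186 FPKM. These are counts by edgeR, and the ranges of log2 fold change were -0.12 to 0.03 for the linker, -0.06 to 0.35 for polymerization, -0.54 to 0.14 for sulfation and -0.48 to 0.04 for editing. Among these 4 lists, an unadjusted p under 0.05 was found for XYLT2, EXTL2, HS2ST1 and HS6ST1, which is 17.4% of the 23 against 22.2% of all tested genes. The DESeq2 Wald test also called 0 of them, and limma on FPKM called only 2 genes over the whole table.

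Genes that release core proteins from the cell contained 1 call among 8 tested. MMP9, a gelatinase that sheds syndecans, had 8.27, 8.46 and 10.8 FPKM in LX-2Vector and 6.21, 4.18 and 4.38 FPKM in LX-2FAP, with no overlap. It fell by 0.86 on the log2 scale (standard error 0.13, edgeR adjusted p = 0.0044), and the adjusted p of MMP9 stayed under 0.05 whichever of the 6 libraries was left out. An overlapping gene shares 18.4% of its exon bases. MMP14, the membrane-bound collagenase and the most abundant of the list, had 21.1 ± 0.688 and 22.3 ± 1.17 FPKM (edgeR adjusted p = 0.235). Of 9 partners of the syndecan cytoplasmic tail, 0 were called, and EZR, which links membrane proteins to actin, had 208 ± 3.02 and 207 ± 5.62 FPKM.

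Of the 7 genes listed as other heparan sulfate proteoglycans, 2 were called lower and 3 higher. Over all tested genes 2.73% were called lower and 5.29% in either direction. No test of the list was made. The basement membrane proteoglycans perlecan (HSPG2) and agrin (AGRN) fell. HSPG2 had 3.93, 3.40 and 3.77 FPKM in LX-2Vector and 2.91, 2.46 and 2.53 FPKM in LX-2FAP (log2 fold change -0.46, standard error 0.07, edgeR adjusted p = 0.00386). AGRN had 12.4, 11.2 and 13.4 FPKM in LX-2Vector and 10.6, 8.29 and 8.96 FPKM in LX-2FAP (log2 fold change -0.38, standard error 0.08, edgeR adjusted p = 0.0136). Neither overlapped between groups, and both are of high GC content (64.5% and 67.5%). With the GC trend removed HSPG2 remained called at -0.29 (edgeR adjusted p = 0.0112) and AGRN did not (-0.19, edgeR adjusted p = 0.0993). AGRN was also not called without replicate 2 (-0.30) or replicate 3 (-0.35) of LX-2FAP. COL18A1, the third basement membrane member and named here after its values were seen, lay at a log2 fold change of -0.28, with an edgeR adjusted p = 0.0522. Its GC content was 67.2%, and with the GC trend removed COL18A1 was at -0.09 (edgeR adjusted p = 0.493).

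CD44, the hyaluronan receptor, neuropilin 1 (NRP1), a semaphorin and VEGF coreceptor, and serglycin (SRGN), the proteoglycan of secretory granules, rose. These are proteoglycans of the cell surface or of granules that can carry glycosaminoglycan chains. Counts per gene do not show whether those chains were heparan sulfate. CD44 had 110, 115 and 114 FPKM in LX-2Vector and 125, 127 and 126 FPKM in LX-2FAP (log2 fold change 0.18, standard error 0.03, edgeR adjusted p = 0.00957). SRGN had 143, 154 and 148 FPKM in LX-2Vector and 162, 181 and 174 FPKM in LX-2FAP (log2 fold change 0.25, standard error 0.05, edgeR adjusted p = 0.0115), and NRP1 went from 43.0 ± 0.288 to 47.1 ± 1.85 FPKM (log2 fold change 0.16, standard error 0.04, edgeR adjusted p = 0.0284). None of the 3 overlapped between groups. Their GC content was low or middling, at 45.3% for CD44, 44.7% for NRP1 and 38.1% for SRGN, and with the GC trend removed the log2 fold changes were 0.20, 0.17 and 0.20, each called. CD44 and SRGN were not called without replicate 2 (0.18 and 0.21) or replicate 3 (0.19 and 0.24) of LX-2FAP. NRP1 was not called without LX-2FAP replicate 3 (0.14), without any 1 of the 3 LX-2Vector libraries (0.16 to 0.17) or with scaling by library size alone (0.13, edgeR adjusted p = 0.0579).

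The list of FGF2 and its receptors, which also holds another FGF ligand and FGF-binding proteins, showed no call among 7 tested genes of 10. FGF2 had 18.3 to 20.9 FPKM in the LX-2Vector libraries and 19.9 to 21.8 FPKM in the LX-2FAP libraries, with overlap (log2 fold change 0.13, standard error 0.05, edgeR adjusted p = 0.155). FGFR1, the most abundant of the receptors here, had 9.81 ± 0.562 FPKM in LX-2Vector and 9.28 ± 0.307 FPKM in LX-2FAP (log2 fold change -0.05, edgeR adjusted p = 0.564). By FPKM with the deposited gene lengths, SDC4, SDC1, GPC1 and SDC3 were each more abundant than FGFR1 in both groups. On the same scale SDC4 and SDC1 were more abundant than FGF2. The level of FGFR1 rests on a deposited length of 17201 bases, whereas its merged exon length is 13842 bases. The shorter length would raise the FPKM of FGFR1, while the 2 lengths of SDC3 are nearly equal (7065 and 7067 bases). With merged exon lengths, the mean of SDC3 stays above that of FGFR1 in LX-2Vector but falls below it in LX-2FAP. The order of SDC3 and FGFR1 thus depends on the length used.

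**Figure D4:**
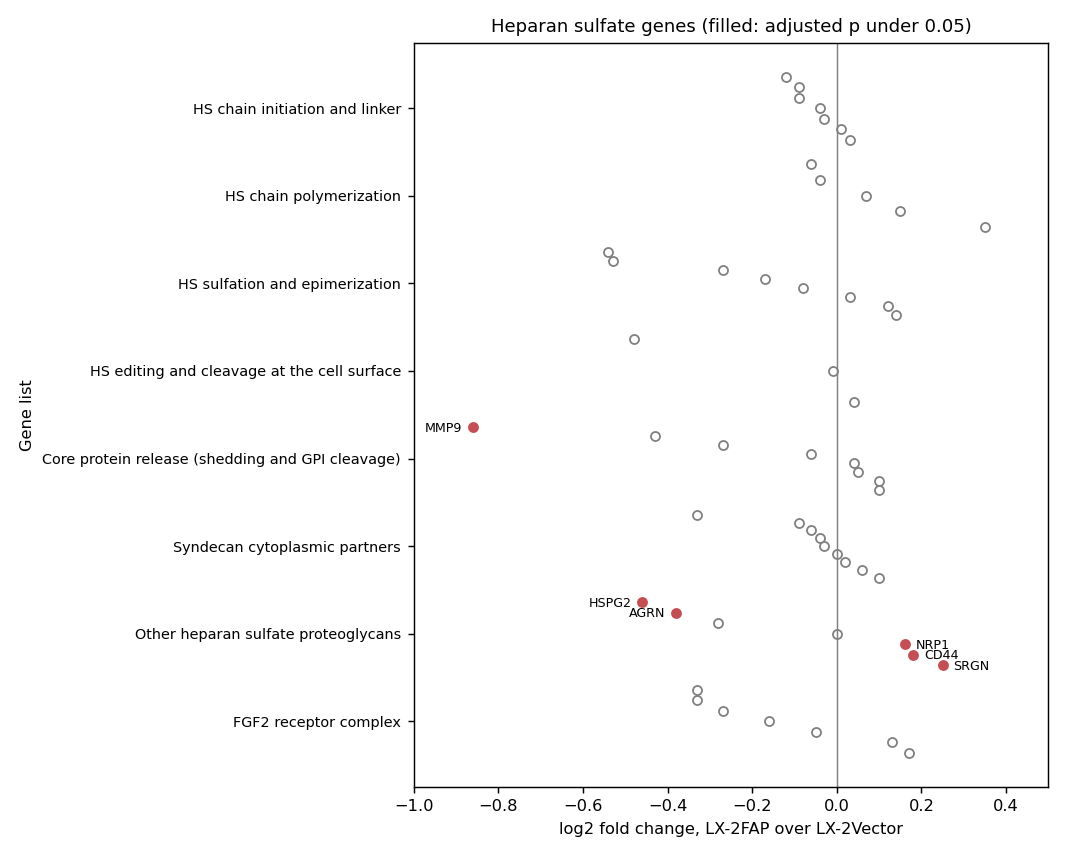
Each circle is the log2 fold change of 1 tested gene of the 8 lists (HS, heparan sulfate), filled and named where the edgeR adjusted p was under 0.05. The filled circles are MMP9 at -0.86, HSPG2 at -0.46 and AGRN at -0.38 on the lower side, and NRP1 at 0.16, CD44 at 0.18 and SRGN at 0.25 on the higher side.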

How the data were processed

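Per the labels, RNA depleted of ribosomal RNA was sequenced; the paper's methods mention poly(A) isolation too. The authors aligned reads with HISAT2 2.0.5 and counted them per gene with featureCounts 1.5.0-p3 (versions from the submitters' processing notes, which also name DESeq2 1.16.1, edgeR and the build hg18). The authors deposited whole-number read counts, not normalized, and FPKM computed from them and gene length. The gene identifiers are of a later build than hg18: of 60605 Ensembl identifiers 58337 are in GENCODE release 29 (GRCh38), which gave the coordinates and GC content used here. Strand use in counting was not stated.

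Counts were tested with the edgeR 4.0.16 quasi-likelihood test (R 4.3.3) with TMM scaling and the filterByExpr defaults (count of at least 10, total of at least 15), LX-2FAP against LX-2Vector with no covariate. Benjamini-Hochberg adjustment ran over 18275 genes, tests were 2-sided, and calls were made under an adjusted p of 0.05. Groups came from the sample titles. CPM is counts-per-million after TMM scaling. Summed FPKM was compared by exact permutation. Alternatives were DESeq2 1.42.0, its size factors, library size alone, other filters, limma 3.58.1 on log2(FPKM + 1) and log2(FPKM + 0.1), a replicate block, a GC trend removed (loess, span 0.5, GC known for 98.1% of tested genes), other thresholds and each library left out.

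The members and gene lists were chosen with earlier results of these data known. Named genes were FAP, the members and, of each list, the called genes, the most abundant gene, FGF2 and FGFR1. Others are named as chosen after their values were seen, or, for XYLT2, EXTL2, HS2ST1 and HS6ST1, because of their unadjusted p. Within groups, pairs of libraries differed beyond counting noise, with chi-square over degrees of freedom of 2.05 to 4.88.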

Additional observations from a re-analysis of the deposited data

How the results depend on the processing

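FAP was called in each alternative, with log2 fold changes from 6.27 to 8.45. Of the 8 tested members 2 were called in the fit reported, and 2 also with DESeq2, DESeq2 size factors, at least 10 counts in every library and the replicate block. Scaling by library size only, no expression filter and a threshold of 0.1 gave 3, the third being GPC6. The GC trend removed gave 1 (SDC1), and limma on log2(FPKM + 1), limma on log2(FPKM + 0.1), an adjusted p under 0.01 and the study's cutoff gave 0. Leaving out 1 library gave 0 to 3. Limma called 2 genes over the whole table at either pseudocount. Of the list genes, 6 were called in the fit reported, 0 with either limma fit and 2 to 8 without 1 library. The lowest were 2 (without replicate 3 of LX-2FAP) and 3 (without replicate 2 of LX-2FAP), and MMP9 and HSPG2 were among them each time. The difference in summed syndecan FPKM was -3.23, and -0.916 on TMM-normalized CPM per kilobase. FPKM is scaled to total counts without the TMM factors, which were 1.005 to 1.014 in LX-2Vector and 0.9885 to 0.9927 in LX-2FAP. Both scales used the same gene lengths. They differed only in these factors and in whether library totals were taken before or after the expression filter. Replicate numbers did not pair the libraries (correlations of deviations -0.0389, 0.0436 and -0.00962 for numbers 1 to 3). With the replicate block 975 genes were called over the table, where 967 were called without it, the log2 fold change of FAP was 8.30, and 8 list genes were called. Depth limits GPC2, GPC5, GPC3 and GPC4, with fewer than 100 counts per library.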
